A study of Mus musculus with 4 samples.

Results

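Of the S100 and annexin genes measured in these leukemic cells, 9 of 10 listed genes (S100a4, S100a6, S100a8, S100a9, S100a10, S100a11, Anxa1, Anxa2, Anxa3 and Anxa5) had at least 1 probe set that the platform annotation ties to a single gene symbol. These 9 genes had 14 such probe sets among the 45037 non-control probe sets of the array. S100a11 was the gene without one: its only probe set is annotated with several symbols, so no level is given for it. The genes were listed by symbol with the differences between the groups already known, so they were in effect selected on the same Ezh2 KO and WT intensities that are shown here, and their differences are given as descriptions without p-values. How many of them, and which, passed the threshold used for all genes is stated beside the share of all genes, and nothing is read from it.

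RNA came from mouse leukemic cells transformed with the MLL-AF9 fusion gene, a driver of acute myeloid leukemia, and recovered from bone marrow of transplanted C57BL/6 recipients. One group, 2 samples, is labelled Ezh2 KO for the transplanted cells, Ezh2 being the histone H3 lysine 27 methyltransferase of Polycomb repressive complex PRC2. The other, 2 samples, is labelled wild type (WT), and all 4 samples carry MLL-AF9. For the Ezh2 KO samples a protocol entry of the labels instead names recipients repopulated with Ink4a-/-Arf-/- marrow, whereas for the WT samples it names wild-type marrow. Loss of Ezh2 and loss of Ink4a and Arf therefore cannot be told apart as properties of that group. Neither how Ezh2 was deleted nor whether each sample is its own mouse or leukemia is given, so the p-values cover array-to-array spread that may be purely technical.

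S100 proteins are small calcium-binding proteins with EF-hand motifs that mostly act as dimers. S100A8 and S100A9 form calprotectin, a major cytosolic protein of neutrophils and monocytes that is also released as an inflammatory signal. Annexins bind acidic phospholipids of membranes in a calcium-dependent way, and several annexins are partners of S100 proteins: S100A10 joins Annexin A2 in a tetramer at the plasma membrane, S100A11 binds Annexin A1, and S100A6 binds several annexins.

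One 1-colour Affymetrix array was run per sample, and the values below are linear intensities of probe sets. Ezh2 itself had intensities of 4989 and 4991 on the Ezh2 KO arrays and 5216 and 5315 on the WT arrays; whether its probes lie inside the deleted stretch was not analysed here, so these values check nothing about the labels. The genes listed for leukemic progenitors, Kit, Cd34, Hoxa9, Meis1, Itgam, Cd48 and Fcgr3, were all above the filter on low intensity, a mean of 19.96. Their summed intensity was 29599 and 29703 on the Ezh2 KO arrays and 29551 and 31246 on the WT arrays, a sum over markers that moved both ways. Itgam, an integrin chain of myeloid cells that is not particular to progenitors, rose to 1991 and 1813 in Ezh2 KO, against 1099 and 1168 in WT (limma adjusted p = 0.000456). The Fc receptor gene Fcgr3 fell to 4787 and 5080 in Ezh2 KO, against 8056 and 8243 in WT (limma adjusted p = 9.14e-05). The other 5 did not pass the test, and 5 of the 7 had an unadjusted p under 0.05. With 2 arrays against 2, an exact permutation test of a single gene cannot go below p = 0.333, so all tests used a limma fit across all genes, on log2(intensity + 16).

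Both calprotectin genes were brighter on the Ezh2 KO arrays, S100a9 by more than S100a8. S100a8 (probe set 1419394_s_at) had intensities of 50689 and 46411 on the Ezh2 KO arrays, against 40793 and 42453 on the WT arrays. S100a9 (1448756_at) had 46219 and 42238 on the Ezh2 KO arrays, against 30536 and 32033 on the WT arrays. Groups did not overlap for either gene, and Ezh2 KO replicate 1 was the highest array for both.

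On the scale of log2(intensity + 16), S100a9 differed by 0.50 (SE 0.07, 1.41-fold higher in Ezh2 KO) and S100a8 by 0.22 (SE 0.06, 1.17-fold higher). The S100a8 difference depended on the scaling, at 0.10 with quantile normalization and 0.14 with median centring, while S100a9 kept 0.42 under both. Whether signals this high are compressed at the top of the intensity range was not tested. The within-array ratio of S100a9 to S100a8, relative to its WT mean, was 0.28 and 0.28 on the log2 scale on the Ezh2 KO arrays and -0.01 and 0.01 on the WT arrays. The 2 calprotectin transcripts thus differed by unequal amounts, S100a9 by more.

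The transcription start regions of this pair are shown because the genes are direct neighbours in the RefSeq gene order, and both brighter in the same group. Each sequence is the RefSeq promoter window in build GRCm38.p6, 5′ to 3′ on the gene's strand, from 250 bases before to 50 bases after the annotated start. Capitals mark TATAAA (the TATA box core) or TTGCNNAA (a C/EBP type motif), searched on both strands.
S100a8, chr3:90668821-90669120, plus strand: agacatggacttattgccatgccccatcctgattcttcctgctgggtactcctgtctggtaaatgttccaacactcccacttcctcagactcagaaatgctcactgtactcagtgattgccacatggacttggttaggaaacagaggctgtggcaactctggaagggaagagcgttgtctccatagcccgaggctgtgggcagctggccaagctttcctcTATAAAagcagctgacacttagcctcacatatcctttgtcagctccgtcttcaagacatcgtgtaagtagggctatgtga
S100a9, chr3:90695672-90695971, minus strand: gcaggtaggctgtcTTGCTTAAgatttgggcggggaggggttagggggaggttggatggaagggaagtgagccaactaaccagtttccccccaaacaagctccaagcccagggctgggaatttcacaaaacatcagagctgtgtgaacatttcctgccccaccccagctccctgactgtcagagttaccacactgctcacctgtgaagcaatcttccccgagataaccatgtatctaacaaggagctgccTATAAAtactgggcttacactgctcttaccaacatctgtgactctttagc

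TATAAA began 30 bases before the annotated start of S100a8, and at position 1, the annotated start itself, in S100a9. Of all 32851 promoter windows in the table, 13.6% held TATAAA on either strand and 10.8% held TTGCNNAA; the S100a9 window held both. CpG dinucleotides, which are dense where PRC2 binds in mammals, numbered 4 in the S100a8 window and 2 in the S100a9 window. The median over all windows was 7, with quartiles of 3 and 20. PRC2 binding was not measured, and a link between these counts and the differences in intensity was not tested.

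**Figure D1:**
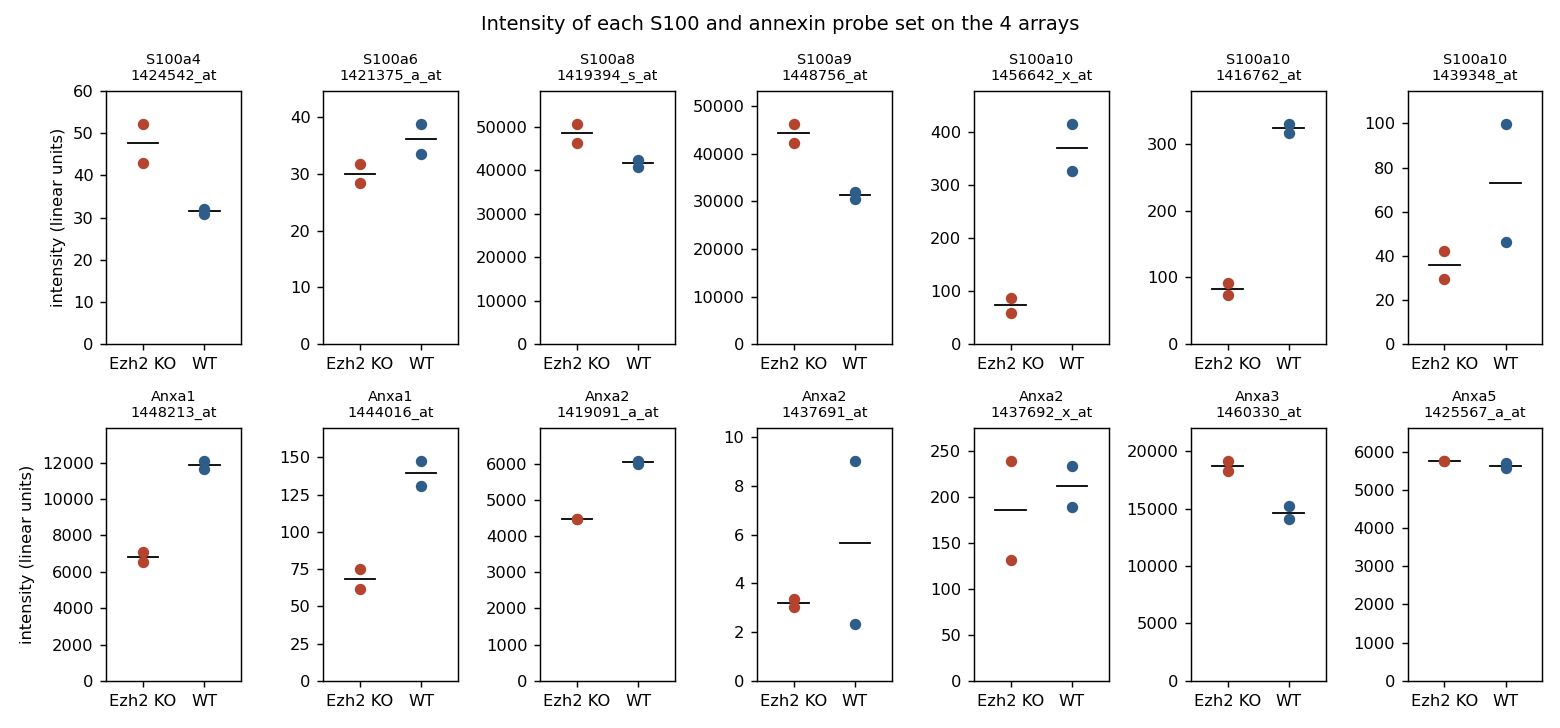
Intensity (linear units, each axis from 0) of the 14 probe sets on the Ezh2 KO arrays (red, left) and the WT arrays (blue, right), with black bars at group means (n = 2 arrays each). S100a8, S100a9 and Anxa3 sit higher in Ezh2 KO, S100a10, Anxa1 and the brightest Anxa2 probe set lower, and Anxa5 lies between 5570 and 5764 on all 4 arrays.

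Markers of maturing and mature neutrophils, granule genes among them, were measured beside calprotectin. Of 8 tested markers (Ltf, Camp, Ngp, Lcn2, Mmp8, Mmp9, Cxcr2 and Cd177), 4 rose at a limma adjusted p under 0.05 and 0 fell, where 5.55% of all 13916 genes tested rose and 6.01% fell, with a median log2 change of 0.55, against 0.007 over all genes. Lcn2, the siderophore-binding lipocalin of secondary granules, had 7037 and 6880 on the Ezh2 KO arrays and 4657 and 4522 on the WT arrays (1.51-fold, limma adjusted p = 0.000253). The gelatinase gene Mmp9 had 241 and 185 in Ezh2 KO and 61.6 and 111 in WT (2.29-fold, limma adjusted p = 0.0224), a call that was lost without WT replicate 1 (log2 change 0.84). Of the markers that did not pass, Cd177 (log2 change -0.20) and Mmp8 (-0.07) were lower in Ezh2 KO, and Ltf (0.81) and Cxcr2 (0.69) higher. The summed intensity of the list was 80843 and 71944 on the Ezh2 KO arrays and 56724 and 55868 on the WT arrays. Most of it came from Camp (34109 and 31210 in Ezh2 KO, 25318 and 25005 in WT) and Ngp (37210 and 31330 in Ezh2 KO, 24272 and 23989 in WT). In bulk RNA a larger share of maturing cells and more transcript per cell cannot be told apart, and the part of these markers in the calprotectin values was not tested.

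Other cell types were checked in the same way. Of 9 monocyte or macrophage markers (Csf1r, Ccr2, F13a1, Ms4a6c, Fcgr1, Cx3cr1, Adgre1, Cd68 and Vcam1) 2 rose and 4 fell, and their sum was 13467 and 14379 in Ezh2 KO against 19181 and 19696 in WT. Most of that gap came from Vcam1. F13a1 (log2 change -0.08), Adgre1 (-0.14) and Fcgr1 (-0.63) did not pass. The adhesion receptor gene Vcam1 fell to 1440 and 1578 in Ezh2 KO, against 4817 and 5769 in WT (limma adjusted p = 4.3e-06), and the membrane protein gene Ms4a6c to 1277 and 1368, against 2703 and 2541 in WT (limma adjusted p = 4.55e-05). With all probe sets of a gene averaged, the log2 change was smaller, at -1.31 in place of -1.80 for Vcam1 and -0.50 in place of -0.98 for Ms4a6c. The other changed markers, named after their values were seen, were Csf1r, the receptor of macrophage colony-stimulating factor, at a log2 change of 0.48 (limma adjusted p = 0.0036), and the chemokine receptor gene Cx3cr1 at 0.60 (limma adjusted p = 0.0215), both higher in Ezh2 KO. The chemokine receptor gene Ccr2 at -0.78 (limma adjusted p = 0.000845) and the lysosomal protein gene Cd68 at -0.89 (limma adjusted p = 0.00012) were lower. Of 5 promyelocyte markers 2 fell and 0 rose: Ms4a3, a cell cycle regulator of granulocyte and monocyte progenitors, by 0.37 on the log2 scale (limma adjusted p = 0.00426), and the granule protease gene Ctsg by 0.25 (limma adjusted p = 0.0363). The others, Mpo (0.09), Prtn3 (0.05) and Elane (-0.03), were nearly level, and the median of the list was -0.03. The sum over all 5 was 131211 and 116116 in Ezh2 KO and 133203 and 129481 in WT. The Ctsg call was lost without Ezh2 KO replicate 2 (-0.19), WT replicate 1 (-0.26) or WT replicate 2 (-0.24).

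Markers of lymphoid, erythroid, platelet and stromal cells were low, and 0 of the tested ones passed in limma in either direction. Their sums on the Ezh2 KO arrays and on the WT arrays were 854 and 1000.4, against 882 and 828, for B cells, of which Cd79b alone gave 761 and 848 in Ezh2 KO and 763 and 739 in WT. For T or NK cells they were 324 and 172, against 223 and 164, with Cd8a the brightest. For erythroid cells they were 191 and 229, against 271 and 222. For megakaryocytes or platelets they were 685 and 582, against 471 and 409, and for stroma or endothelium 373 and 445, against 294 and 272. Of these lists 4 B cell, 3 T or NK, 3 erythroid, 5 platelet and 6 stromal genes were tested. At an unadjusted p under 0.05, 2 platelet and 1 stromal genes passed and none of the others did. The stromal marker Pdgfrb (log2 change 0.92, limma adjusted p = 0.113) was at 1.32 without Ezh2 KO replicate 1. It passed with the replicate number as a block (limma adjusted p = 0.0442).

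S100a10 showed the largest difference of the listed genes, and the direction was shared by its 3 probe sets. Probe set 1456642_x_at had 59.3 and 88.0 on the Ezh2 KO arrays, against 415.5 and 326 on the WT arrays. Probe set 1416762_at had 74.5 and 91.7 on the Ezh2 KO arrays, against 317 and 330 on the WT arrays. The lowest WT value lay above the highest Ezh2 KO value by 1.72 for 1456642_x_at and 1.63 for 1416762_at on the log2 scale, so the groups were far apart.

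The log2 differences were -2.12 (SE 0.23, 4.35-fold lower in Ezh2 KO) for 1456642_x_at and -1.78 (SE 0.19, 3.44-fold lower) for 1416762_at. At these intensities in Ezh2 KO the size depends on the offset and the array: it ran from -2.35 to -1.66 for 1456642_x_at and from -1.96 to -1.40 for 1416762_at over the alternatives, with -1.66 and -1.40 at a pseudocount of 64 and -2.33 and -1.96 at 1. The suffix _x_at marks probes that may also bind other transcripts, and 1416762_at, without that suffix, differed in the same direction by somewhat less. The third probe set, 1439348_at, was dimmer, at 42.0 and 29.8 on the Ezh2 KO arrays against 46.1 and 99.8 on the WT arrays. Its groups did not overlap, but its WT arrays lay further apart than its group means, and its log2 difference of -0.72 (SE 0.39) ranged from -1.17 to -0.27 when 1 array was left out (-1.17 without WT replicate 1, -0.27 without WT replicate 2).

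Annexin A2, the membrane partner of S100A10, differed far less. Anxa2 (1419091_a_at) had 4480 and 4466 on the Ezh2 KO arrays, against 6083 and 6000 on the WT arrays, a log2 difference of -0.43 (SE 0.06, 1.35-fold lower in Ezh2 KO). The replicate arrays of each group lay within 0.02 of each other on the log2 scale, and the groups were well apart. Its second probe set, 1437692_x_at, had 132 and 240 in Ezh2 KO and 190 and 234 in WT. These groups overlapped, and the log2 difference of -0.22 (SE 0.26) became 0.17 without Ezh2 KO replicate 1. The last, 1437691_at, at 3.03 and 3.36 in Ezh2 KO and 9.03 and 2.32 in WT, was below the filter and was not tested.

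Within each array, the ratio of S100a10 (1456642_x_at) to Anxa2, relative to its WT mean, was -1.92 and -1.45 on the log2 scale on the Ezh2 KO arrays and 0.16 and -0.16 on the WT arrays. With 1416762_at in its place the ratio was -1.48 and -1.22 in Ezh2 KO and -0.04 and 0.04 in WT. The transcripts of the tetramer's subunits thus differed by unequal amounts, S100a10 by more on both Ezh2 KO arrays. Relative to Anxa5, Anxa2 was at -0.46 and -0.47 in Ezh2 KO and -0.01 and 0.01 in WT.

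**Figure D2:**
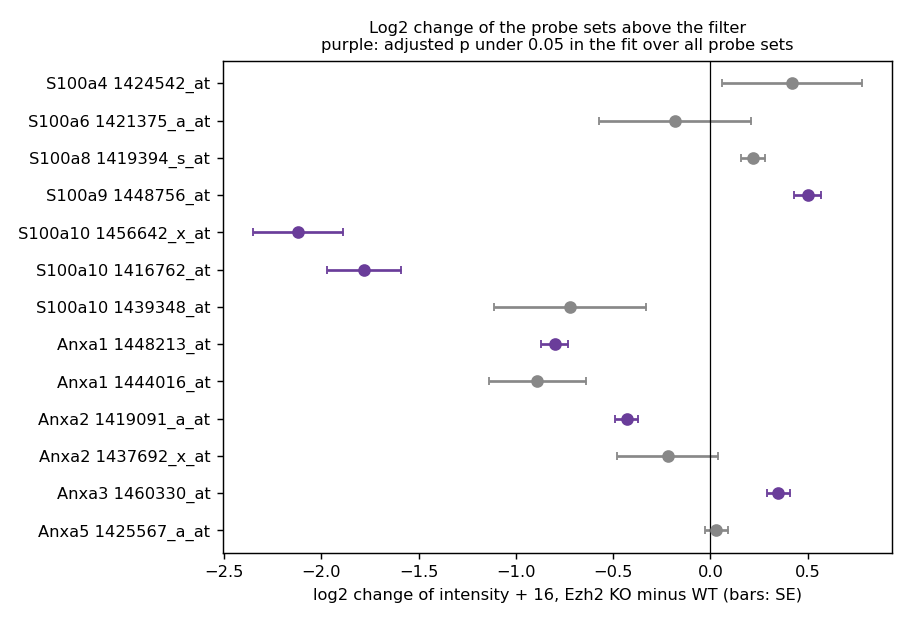
Log2 difference in intensity + 16, Ezh2 KO minus WT, of the 13 probe sets above the filter, with bars of 1 SE from the limma fit over all probe sets (2 arrays a group). S100a10 probe sets lie furthest left at -2.12 and -1.78, and S100a9 furthest right at 0.50 with a short bar.

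Annexin A1, a regulator of neutrophil migration and of the resolution of inflammation, had 2 probe sets and both were dimmer in Ezh2 KO. Anxa1 (1448213_at) had 6522 and 7107 on the Ezh2 KO arrays, against 12104 and 11644 on the WT arrays (log2 difference -0.80, SE 0.07, 1.74-fold lower in Ezh2 KO). Probe set 1444016_at had 61.4 and 75.2 in Ezh2 KO, against 131 and 148 in WT (-0.89, SE 0.25). Both probe sets gave similar differences, and neither had overlapping groups.

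Annexin A3, abundant in granulocytes and their precursors, stood the other way. Anxa3 (1460330_at) had 19171 and 18233 on the Ezh2 KO arrays, against 15224 and 14071 on the WT arrays (log2 difference 0.35, SE 0.06, 1.28-fold higher in Ezh2 KO). Anxa1 relative to Anxa3 was at -1.25 and -1.06 in Ezh2 KO and -0.03 and 0.03 in WT. Annexin A5, known for its use as a probe of exposed phosphatidylserine, differed least: Anxa5 (1425567_a_at) had 5754 and 5764 in Ezh2 KO and 5695 and 5570 in WT. Its log2 difference of 0.03 had a 95% interval of -0.10 to 0.17 and turned to -0.05 with median centring. Between the same samples, Anxa3 was thus higher, Anxa1 and Anxa2 lower and Anxa5 nearly level in Ezh2 KO.

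**Figure D3:**
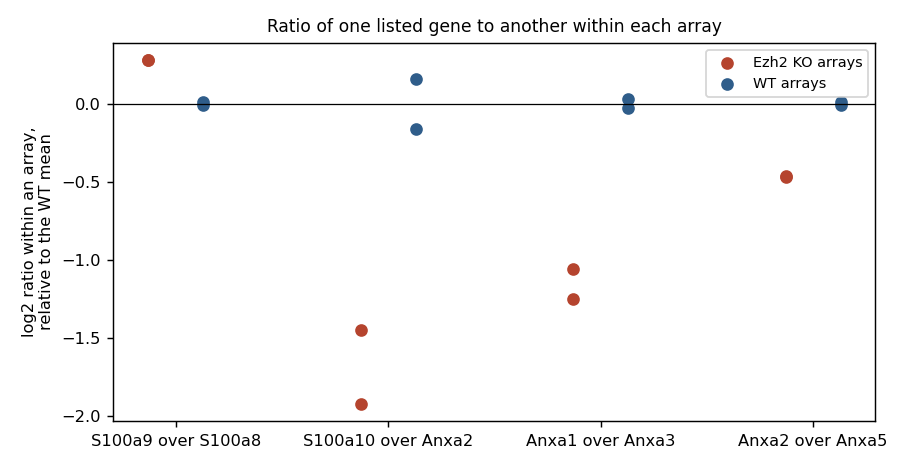
Log2 ratio of 1 listed gene to another within each array, set to 0 at the WT mean, for the Ezh2 KO arrays (red) and the WT arrays (blue), using each gene's brightest probe set. S100a10 over Anxa2 lies at -1.92 and -1.45 in Ezh2 KO, and S100a9 over S100a8 at 0.28 on both Ezh2 KO arrays.

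Start regions of the annexins that were dimmer in Ezh2 KO are shown in the same format as those of the calprotectin genes. A link between their CpG content and the differences in intensity was not tested. The windows are 300 bases of RefSeq build GRCm38.p6, with TATAAA and TTGCNNAA on either strand in capitals.
Anxa1, chr19:20390622-20390921, minus strand: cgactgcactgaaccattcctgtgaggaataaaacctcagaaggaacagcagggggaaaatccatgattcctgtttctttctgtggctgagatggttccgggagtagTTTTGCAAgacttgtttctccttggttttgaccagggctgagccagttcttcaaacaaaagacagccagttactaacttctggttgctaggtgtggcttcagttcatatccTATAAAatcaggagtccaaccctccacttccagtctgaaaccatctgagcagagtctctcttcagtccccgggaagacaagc
Anxa2, chr9:69453433-69453732, plus strand: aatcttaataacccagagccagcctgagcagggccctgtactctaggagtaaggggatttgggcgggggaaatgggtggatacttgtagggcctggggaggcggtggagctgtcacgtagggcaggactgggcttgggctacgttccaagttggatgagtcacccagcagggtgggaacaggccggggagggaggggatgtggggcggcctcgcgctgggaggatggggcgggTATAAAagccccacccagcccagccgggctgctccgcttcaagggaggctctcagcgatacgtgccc

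TATAAA began 32 bases before the start in Anxa1 and 17 bases before it in Anxa2. The Anxa1 window held 3 CpG and the Anxa2 window 13. Windows were found for 8 of the 10 listed genes, not for S100a10 or Anxa3, and 5 of the 8 held TATAAA (S100a4, S100a8, S100a9, Anxa1 and Anxa2). The STAT type motif TTCNNNGAA, in 8.3% of all windows, was found in 0 of the 8. CpG counts in the others were 2 for S100a4, 6 for S100a6, 15 for S100a11 and 16 for Anxa5. Windows of 300 bases describe only the letters around the annotated start.

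S100a4, a metastasis-associated binder of nonmuscle myosin, and S100a6, calcyclin, were dim in these cells. S100a4 (1424542_at) had 43.0 and 52.2 in Ezh2 KO and 30.9 and 32.0 in WT, a log2 difference of 0.42 (SE 0.36). The 95% interval ran from -0.40 to 1.23, and a pseudocount of 64 reduced the difference to 0.22. S100a6 (1421375_a_at) had 28.4 and 31.7 in Ezh2 KO and 38.8 and 33.4 in WT, at -0.18 (SE 0.39, 95% interval -1.05 to 0.69) and between -0.28 and -0.09 under the alternatives. Groups of both genes did not overlap, but at this brightness intensity cannot be told from background without detection calls, which were not used here.

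Of the 13 probe sets above the filter, 6 had a limma adjusted p under 0.05 over all probe sets, where 7.92% of 25576 probe sets did. The count was 2 higher in Ezh2 KO (S100a9 and Anxa3), beside 4.03% of all, and 4 lower (the 2 brighter ones of S100a10 and the brightest of Anxa1 and of Anxa2), beside 3.89%. The Anxa3 call was lost with median centring (0.27), without a filter and without WT replicate 2 (0.30), while the others were kept under these settings. Groups did not overlap in 12 of the 13, where 50.5% of all probe sets had groups that did not overlap. With 1 probe set a gene, 5 of 9 genes passed, beside 11.6% of 13916 genes: 2 higher, beside 5.55%, and 3 lower, beside 6.01%. The median log2 difference was -0.22 over the 13 probe sets and 0.025 over all probe sets, in which S100a10, Anxa1 and Anxa2 count more than once. With 1 probe set a gene it was 0.03 over the 9 genes and 0.007 over all genes. Calls depended on letting the prior variance vary with intensity: under one common prior, limma called 0 of 25576 probe sets, of which 4215 had an unadjusted p under 0.05, and 0 of 13916 genes (2595 unadjusted). That setting ends every call given below as well.

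The other members of these families mostly did not pass the test or were too dim to test. Of 16 further S100 and annexin genes with a probe set (Anxa4, Anxa6, Anxa7, Anxa8, Anxa9, Anxa10, Anxa13, S100a1, S100a3, S100a5, S100a7l2, S100a13, S100a14, S100a16, S100b and S100g), 10 were above the filter, and 1 fell and 0 rose in limma. The median log2 change of the 10 was -0.08, against 0.007 over all genes. The exception was Anxa9, whose human protein lacks the calcium-binding sites usual for annexins. It had 126 and 90.0 on the Ezh2 KO arrays and 209 and 234 on the WT arrays (log2 change -0.95, SE 0.22, 1.93-fold lower, limma adjusted p = 0.0224). That call was lost without Ezh2 KO replicate 2 (-0.74), WT replicate 1 (-1.03) or WT replicate 2 (-0.87). S100a13, the brightest of the others, had 2362 and 2181 in Ezh2 KO and 2791 and 2441 in WT (limma adjusted p = 0.164). Which S100 and annexin genes were listed above and which are counted here was decided with their values known.

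All listed S100 genes lie in one gene cluster on mouse chromosome 3, which also holds the epidermal differentiation genes. In RefSeq gene order 0 protein-coding genes separate S100a8 from S100a9 and 0 separate S100a11 from S100a10, while 56 lie between S100a9 and S100a11. In the window from 5 genes before the first to 5 after the last S100a gene, 28 other genes were tested and limma called 0 of them, with 4 at an unadjusted p under 0.05 and a median log2 change of 0.23, against 0.007 over all genes. These 4, named after their values were seen, were Lelp1 (log2 change 1.6, SE 0.46), Snapin (0.23, SE 0.07), S100a1 (-0.24, SE 0.09) and S100a13 (-0.20, SE 0.08). A call appeared for 1 of these genes without Ezh2 KO replicate 2. The brightest of the 28, the chromatin and mRNA export factor Chtop, had 5730 and 5889 in Ezh2 KO and 5805 and 6211 in WT (log2 change -0.05, limma adjusted p = 0.72). The RNA-binding protein gene Ilf2 had 2621 and 2758 in Ezh2 KO and 2526 and 2667 in WT (0.05, limma adjusted p = 0.724). Of the 28 genes, 11 were above a filter at the 50th percentile, so the median of 0.23 is taken over mostly dim genes.

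**Figure D4:**
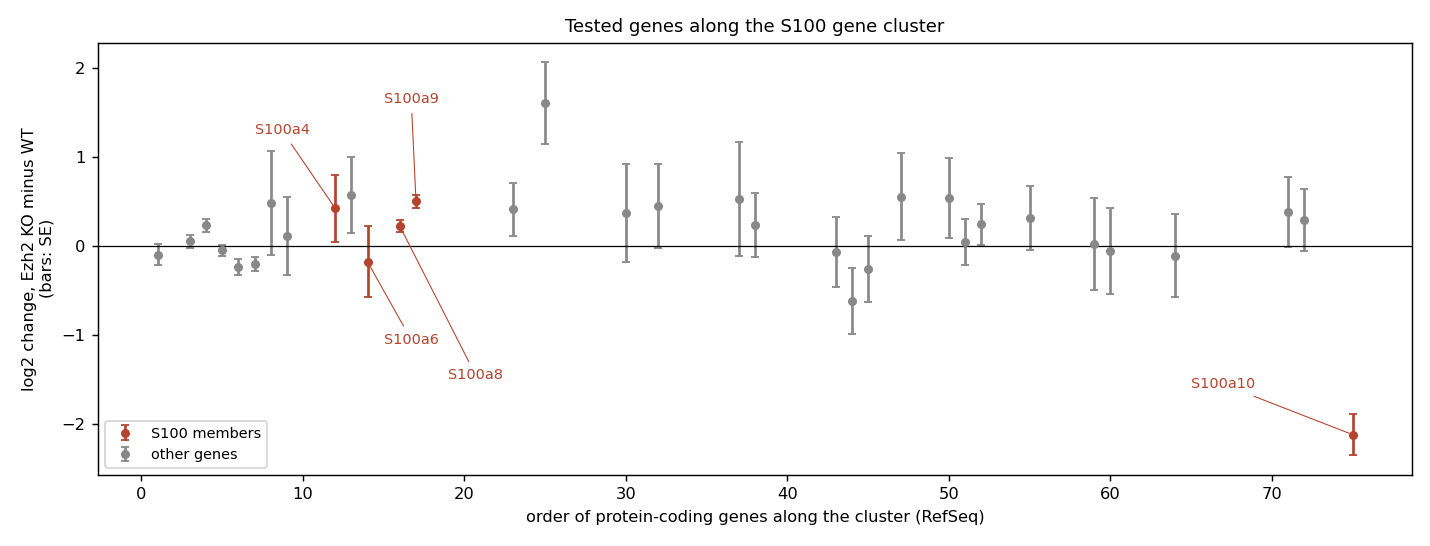
Log2 change, Ezh2 KO minus WT, of the tested genes along the S100 cluster in RefSeq order (not to distance), with bars of 1 SE (2 arrays a group). The listed S100 genes (red) include S100a9 at 0.50 beside S100a8 at 0.22, and S100a10 at -2.12 near the far end. S100a11 is not drawn because it has no probe set with a single symbol.

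Of 9 tested genes for receptors through which these proteins act outside the cell, 4 rose and 1 fell, with a median log2 change of 0.60. Over all genes 5.55% rose and 6.01% fell, and the median was 0.007. Ager, the receptor for advanced glycation end products that binds several S100 proteins, had 203 and 203 on the Ezh2 KO arrays and 102 and 76.9 on the WT arrays (2.09-fold, limma adjusted p = 0.0137). Cd14, a co-receptor of the Toll-like receptor TLR4 through which S100A8 can signal, had 3148 and 3130 in Ezh2 KO and 1702 and 1523 in WT (1.94-fold, limma adjusted p = 5.52e-05). Ly96, which encodes the TLR4 partner MD-2, moved the opposite way, at 66.04 and 92.21 in Ezh2 KO and 167 and 150 in WT (1.85-fold lower, limma adjusted p = 0.0487).

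Fpr2, a formyl peptide receptor that Annexin A1 engages, had 518 and 427 in Ezh2 KO and 268 and 275 in WT (1.69-fold, limma adjusted p = 0.0076). Cd69, an activation antigen reported in human cells to bind calprotectin, had 7800 and 8470 in Ezh2 KO and 5110 and 5596 in WT (1.52-fold, limma adjusted p = 0.000673). The Ager call was lost without WT replicate 2 (0.89). The Ly96 call was lost without Ezh2 KO replicate 1 (-0.69), WT replicate 1 (-0.82) or WT replicate 2 (-0.96).

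**Figure D5:**
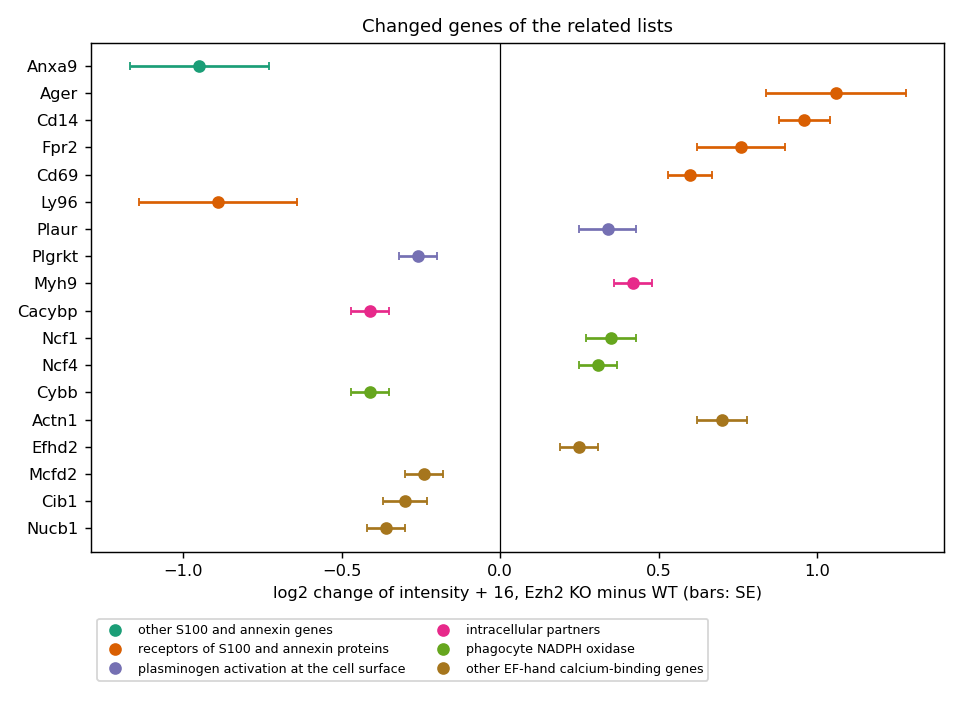
Log2 change in intensity + 16, Ezh2 KO minus WT, with bars of 1 SE, of the genes past the limma threshold in the 6 related lists (2 arrays a group, colours by list). Ager and Cd14 lie furthest right at 1.06 and 0.96, and Anxa9 and Ly96 furthest left at -0.95 and -0.89.

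Genes of plasminogen activation, a reaction that the tetramer of S100A10 and Annexin A2 promotes at the cell surface, were few: 4 were tested, of which 1 rose and 1 fell. Plaur, the urokinase receptor, had 883.5 and 945 in Ezh2 KO and 735 and 707 in WT (1.26-fold, limma adjusted p = 0.0437). Plgrkt, another plasminogen receptor, had 2463 and 2514 in Ezh2 KO and 2992 and 2970 in WT (1.20-fold lower, limma adjusted p = 0.0292). Plaur lost its call without Ezh2 KO replicate 2 (0.29), WT replicate 1 (0.36) or WT replicate 2 (0.31), and Plgrkt without Ezh2 KO replicate 1 (-0.24), WT replicate 1 (-0.25) or WT replicate 2 (-0.26).

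Of 11 tested intracellular partners 1 rose and 1 fell, with a median log2 change of 0.07. Myh9, the nonmuscle myosin heavy chain that S100A4 binds, had 16836 and 16209 in Ezh2 KO and 12025 and 12602 in WT (1.34-fold, limma adjusted p = 0.00209). Cacybp, the binding protein of S100A6, had 4112 and 4307 in Ezh2 KO and 5484 and 5700 in WT (1.33-fold lower, limma adjusted p = 0.00292). With 1 array left out, the log2 change lay between 0.39 and 0.46 for Myh9 and between -0.44 and -0.38 for Cacybp.

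The phagocyte NADPH oxidase, to which calprotectin delivers arachidonic acid, had 5 tested subunit genes, of which 2 rose and 1 fell. Ncf4 had 9930 and 10057 in Ezh2 KO and 8121 and 7992 in WT (1.24-fold, limma adjusted p = 0.00796), and Ncf1, the cytosolic organiser, 15000.4 and 12434 in Ezh2 KO and 10649 and 10715 in WT (1.28-fold, limma adjusted p = 0.0254). Cybb, the catalytic membrane subunit, had 5212 and 5086 in Ezh2 KO and 6731 and 6926 in WT (1.33-fold lower, limma adjusted p = 0.00232). Ncf1 lost its call without Ezh2 KO replicate 1 (0.22), WT replicate 1 (0.35) or WT replicate 2 (0.36), and with median centring (0.28), as did Ncf4 with median centring (0.23).

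Calcium-binding proteins with EF-hands outside the S100 family moved in both directions. Of 18 tested genes 2 rose and 3 fell, with a median log2 change of 0.01. Actn1, which encodes an actin cross-linking alpha-actinin, rose 1.62-fold (limma adjusted p = 0.000795) and Efhd2, an actin-binding protein of immune cells, 1.19-fold (limma adjusted p = 0.0246). The Golgi protein gene Nucb1 fell 1.28-fold (limma adjusted p = 0.00621), the integrin-binding protein gene Cib1 1.23-fold (limma adjusted p = 0.0196) and Mcfd2, a cargo receptor subunit of the secretory pathway, 1.18-fold (limma adjusted p = 0.046). Efhd2 lost its call without Ezh2 KO replicate 1 (0.22) or either WT array (0.26 and 0.25), Cib1 without either WT array (-0.28 and -0.33), and Mcfd2 without any 1 of the 4 arrays (-0.28 to -0.19).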

How the data were processed

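Probe set intensities on a linear scale were deposited by the authors for 4 arrays. Expression Console (Affymetrix) made them, per the submitters' processing notes, whose version and way of summarising probes are not given in the sources used here. Every array had a mean of 500 after trimming 2% from both ends, so differences in total mRNA per cell are removed.

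Of 45101 probe sets, 64 controls were left out and 34945 had 1 symbol. Values were tested as log2(intensity + 16) with lmFit and eBayes of limma 3.58.1 (R 4.3.3), an intensity-dependent prior variance and Benjamini-Hochberg adjustment at 0.05. This was done over 25576 probe sets, and over 13916 genes by each gene's brightest probe set, above the 30th percentile (19.96). Folds are of intensity plus 16, which understates change of dim genes. Python 3.11.15 and matplotlib 3.10.9 drew figures.

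The listed genes, related lists and tests were chosen with earlier results of these data known. Named genes were all probe sets of the listed genes, Ezh2, and of each related list the changed genes (at most 6), with the brightest up to 2 where fewer changed; of each marker list, up to 2 changed genes or the brightest. Alternatives were pseudocounts of 1 and 64, a filter at the 50th percentile or none, median centring, quantile normalization, a single or robust prior variance, averaged probe sets, the replicate number as a block, and leaving out each array. Leaving out an array leaves 1 sample in a group. Several adjusted p-values, as for Vcam1 and Cd14, were far smaller without an Ezh2 KO array or with the block than in the main fit. Calls kept or gained in those fits therefore do not show stability.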

Additional observations from a re-analysis of the deposited data

How the results depend on the processing

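No alternative turned the direction of any listed probe set that had passed the threshold. With a single prior variance limma called 0 listed probe sets, 0 listed genes and 0 genes of every related list. Without a filter the calls were 0 of the other S100 and annexin genes in place of 1, 3 EF-hand genes in place of 5, and 1 cluster neighbour in place of 0. Averaged probe sets gave 3 EF-hand genes and 1 cluster neighbour, and a pseudocount of 64 gave 1 cluster neighbour. Leaving out 1 array gave 0 to 1 other S100 and annexin genes, 7 to 12 partner genes in place of 12 (7 without WT replicate 2), 2 to 5 EF-hand genes and 0 to 1 cluster neighbours. Over all genes median centring gave 432 higher and 1008 lower calls in place of 772 and 836, and moved the median log2 change from 0.007 to -0.07. All genes called fell to 875 without WT replicate 1, 988 without WT replicate 2 and 958 with averaged probe sets, against 1608, and rose to 2719 with the block. Of 26 changed genes outside the list that were named by the rule above, 12 kept their call in every setting other than the single prior variance. Csf1r, Cx3cr1, Ccr2, Cd68, Camp and Ngp, named outside that rule, are not among the 26, and their calls were not followed through the settings. Beyond leaving out arrays, median centring ended the calls of Plaur (0.26), Efhd2 (0.18) and Ctsg (-0.33), quantile normalization that of Mcfd2 (-0.22), and averaged probe sets those of Actn1 (0.45), Cybb (-0.32), Mmp9 (0.70), Ly96 (-0.89) and Mcfd2 (-0.24). Without a filter, which raises the number of genes tested to 18193, Plaur, Ager, Ly96, Ncf1, Mmp9, Ctsg, Anxa9, Efhd2 and Mcfd2 lost theirs. The replicate numbers in the titles are shared only as numbers, and deviations of same-numbered arrays correlated at 0.0409 across genes. With the replicate block the calls were 3 other S100 and annexin genes, 14 partner genes, 7 EF-hand genes and 4 cluster neighbours, beside 2719 of 13916 over all genes. Precision is limited by 2 arrays a group, and for S100a4, S100a6 and 1439348_at of S100a10 by signals near background. The brighter S100a10 probe sets were also dim in Ezh2 KO, at 59.3 to 91.7. The sizes of their differences and of their ratios to Anxa2 therefore depend on the offset, and detection calls were not used.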
